A study of Mus musculus with 6 samples.

Results

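The genes described here are the p53 family (Trp53, Trp63 and Trp73), the Mdm proteins that restrain p53 (Mdm2 and Mdm4) and the DNA damage checkpoint kinases (Atm, Atr, Chek1 and Chek2). They were taken by gene name, and all 9 were found among the 54532 genes of the count table. RNA of mouse oocytes had been sequenced in 3 libraries of control mice and 3 of AMH-treated mice. AMH, anti-Müllerian hormone, is a TGF-beta family hormone made by granulosa cells. All were C57BL/6J mice, labelled as 6 to 7 weeks old. Recombinant mouse AMH, made in bacteria, was injected daily at 300 ng into the peritoneal cavity from day 21 of age. The labels do not say whether controls were injected, how many oocytes of which stage were pooled or whether cumulus cells were removed. Nor do they tie libraries to animals, and p-values here therefore cover only library-to-library spread, which could be technical in origin.

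Damaged DNA is sensed by the kinases ATM, which answers double-strand breaks, and ATR, which answers exposed single-stranded DNA. They activate the effector kinases CHK2 (Chek2) and CHK1 (Chek1), which hold the cell cycle and signal to the p53 family. In oocytes the family member best known for quality control is TAp63, a form of the Trp63 product that is held inactive in resting oocytes and, once phosphorylated after damage, switches on cell death genes. MDM2 is a ubiquitin ligase that sends p53 to the proteasome, and MDM4 binds p53 and blocks its activity as a transcription factor.

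Depth was 66392859 to 72109080 counts per library. Oocyte transcripts were abundant in every library, with Gdf9 at 5454 to 11908 and Zp3 at 79.4 to 370 CPM (counts scaled to library size, corrected by TMM). Markers of cumulus and granulosa cells, which surround the oocyte, were present as well, with the AMH receptor Amhr2 at 0.966 CPM in control 2, the lowest library, and 35.9 CPM in AMH 3, the highest. Summed over 23 such markers, all with counts in every library, the level was 1152, 397 and 4015 CPM in controls 1, 2 and 3 and 4783, 4707 and 3658 CPM in AMH 1, 2 and 3. By this sum control 3 lay inside the AMH range, but single markers differed. Amhr2 (18.8 CPM) and Fshr (5.41 CPM) in control 3 were below every AMH library (27.2 to 35.9 and 6.77 to 7.73 CPM). Inha in control 3 (914 CPM) lay inside the AMH range (739 to 1226 CPM), and Fst (426 CPM) above it (197 to 307 CPM). The 31 oocyte markers summed to 35658 to 46760 CPM in controls and to 21161 to 34652 CPM after AMH, without overlap, AMH 3 being nearest to the controls. Summed markers of immune cells (22.7 to 96.5 against 129 to 202 CPM) and of red cells (1.11 to 5.64 against 22.8 to 357 CPM) were higher in every AMH library, and those of secretory epithelium overlapped (47.4 to 214 against 204 to 824 CPM). Summed endothelial markers were lower in every AMH library (230 to 277 against 127 to 213 CPM). Most of this sum was Pecam1 (145 to 187 against 87.5 to 143 CPM), and single endothelial markers differed. Kdr and Flt1 were also lower in every AMH library. Cdh5 was higher in every AMH library (0.265 to 1.59 against 1.74 to 2.64 CPM). Tek, Tie1 and Vwf overlapped, and Emcn had no counts. Of all pairs of libraries, control 3 and AMH 3 had the most similar counts (chi-square per degree of freedom 55.9, and 66.0 for the next pair, controls 1 and 2), and no pair agreed within sampling noise. In whole oocyte RNA, fewer cells of a type and less RNA per cell cannot be told apart.

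Start-site sequences are shown for the genes on which the comparisons turn: Chek1 and Chek2, the effector kinases that lay on opposite sides of the control, Mdm2, the classical p53 target, and Trp73, which has 2 start sites that a count per gene cannot separate. The windows are from RefSeq on GRCm38.p6, run from 250 bases before to 50 after a start site and are given 5′ to 3′ on the gene's strand. RefSeq windows matched 8 of the 9 genes, in 10 windows. Capitals mark GCGGGAA (either strand, the core of a common E2F site), a p53 decamer (the p53 consensus without mismatch) or a full p53 site (2 decamers end to end with at most 2 mismatches). Both strands were searched. GCGGGAA was chosen after the sequences were seen, and a full site may contain a decamer.
Chek1, chr9:36726609-36726908, minus strand: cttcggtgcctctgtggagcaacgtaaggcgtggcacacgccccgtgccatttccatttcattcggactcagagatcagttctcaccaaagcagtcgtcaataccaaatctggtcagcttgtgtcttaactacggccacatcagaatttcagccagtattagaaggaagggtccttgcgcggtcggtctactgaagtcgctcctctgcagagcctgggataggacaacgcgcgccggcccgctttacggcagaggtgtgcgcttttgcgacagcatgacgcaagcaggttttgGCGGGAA
Chek2, chr5:110839733-110840032, plus strand: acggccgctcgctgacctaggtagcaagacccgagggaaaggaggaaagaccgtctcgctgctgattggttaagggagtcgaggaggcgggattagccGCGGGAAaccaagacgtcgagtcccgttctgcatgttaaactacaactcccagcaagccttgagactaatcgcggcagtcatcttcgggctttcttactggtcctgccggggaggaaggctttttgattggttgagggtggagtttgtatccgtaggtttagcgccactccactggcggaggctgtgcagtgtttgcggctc
Mdm2, chr10:117710709-117711008, minus strand: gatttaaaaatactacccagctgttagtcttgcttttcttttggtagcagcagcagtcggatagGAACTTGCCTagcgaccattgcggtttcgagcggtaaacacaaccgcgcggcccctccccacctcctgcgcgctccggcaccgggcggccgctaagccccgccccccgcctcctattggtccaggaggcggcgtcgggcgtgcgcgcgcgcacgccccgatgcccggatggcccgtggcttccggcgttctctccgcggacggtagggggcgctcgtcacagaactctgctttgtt
Trp73 upstream start, chr4:154139826-154140125, minus strand: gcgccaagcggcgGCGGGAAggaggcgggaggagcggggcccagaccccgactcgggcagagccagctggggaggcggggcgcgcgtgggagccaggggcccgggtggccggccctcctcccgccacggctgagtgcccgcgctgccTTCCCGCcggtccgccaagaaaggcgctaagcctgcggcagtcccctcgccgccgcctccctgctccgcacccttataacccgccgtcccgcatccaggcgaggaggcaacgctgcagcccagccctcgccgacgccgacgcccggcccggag
Trp73 internal start, chr4:154097124-154097423, minus strand: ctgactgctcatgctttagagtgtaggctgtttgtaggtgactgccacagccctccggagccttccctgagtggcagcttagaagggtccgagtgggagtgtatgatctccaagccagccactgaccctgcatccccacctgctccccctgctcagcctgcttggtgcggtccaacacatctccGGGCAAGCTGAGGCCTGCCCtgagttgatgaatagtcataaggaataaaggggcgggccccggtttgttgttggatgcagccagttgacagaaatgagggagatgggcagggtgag

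GCGGGAA was found in 4 of the 10 windows, those of Chek1, Chek2, Atm and the upstream start of Trp73, and in 4.60% of the 32851 RefSeq windows of mouse genes. As the motif was picked from these windows, its share among them is not evidence of an excess. The Chek1 and Chek2 windows thus share this motif, although the values of the 2 genes differed between the groups in opposite directions. The p53 decamer was in 2 of the 10 windows, those of Mdm2 and Trp53, and in 8.36% of all windows. The Mdm2 window covers only the start site at the beginning of the gene, base 117710758. Sequence further into Mdm2 was not searched. A full p53 site was in 1 of the 10, the internal start of Trp73, where it runs over bases 185 to 204 of the window, and in 0.798% of all windows. In GENCODE M21, 4 transcripts of Trp73 begin inside the internal window, 3 of them protein-coding, and 0 begin inside the upstream one. The annotated gene nevertheless begins at base 154140208, just beyond the upstream window, which ends at base 154140125. The 0 therefore does not mean that no upstream start is annotated. Of the other motifs searched, CCAAT was in 4 of the 10 windows and in 37.4% of all, GGGCGG in 4 of the 10 and in 35.7% of all, and CANNTG in 6 of the 10 and in 72.3% of all. A match describes the letters only and shows neither binding nor use of a start site.

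Per kilobase of gene, the 9 transcripts spanned a wide range in these oocytes. Mean FPKM (fragments per kilobase, scaled by 1 effective size per library, as deposited) over the 6 libraries was 99.3 for Chek1, 99.2 for Mdm4, 65.8 for Mdm2 and 22.7 for Trp53, the most abundant of its family. Trp63 had a mean of 4.07, Trp73 of 2.77, Chek2 of 1.08, Atr of 0.706 and Atm of 0.561 FPKM. The effector kinase Chek1 and both p53 restrainers were thus above p53 itself in every library, and Chek2, Atr and Atm were lowest by mean.

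The order was stable at its upper end. Mdm2 ranked below Chek1 and Mdm4 and above Trp53 in 6 of 6 libraries, and Trp53 ranked above Trp63 in 6 of 6, with no overlap between the ranges of Mdm2, Trp53 and Trp63. Chek1 and Mdm4 could not be ordered, since Chek1 was the higher in 3 of 6 libraries. Trp63 was above Trp73 in 6 of 6 libraries, although their ranges over libraries overlapped, and Trp73 was above Chek2 in 5 of 6. Chek2, Atr and Atm were ordered differently in the 2 groups. In the AMH libraries Chek2 (1.32 to 1.76 FPKM) was above both Atr (0.467 to 0.685) and Atm (0.494 to 0.652), which overlapped each other. In the controls Atr (0.638 to 1.07 FPKM) was above Atm (0.534 to 0.588), and Chek2 (0.339 to 1.09) overlapped both. The deposited lengths join all exons of a gene, 23629 bases for Atr, whose longest protein-coding transcript in GENCODE M21 has 8102. On that transcript length, a setting chosen after seeing the data, mean Atr was 2.06 FPKM, above Chek2 at 1.43, and Mdm4 was 207 FPKM, above Chek1 at 121.

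None of the 9 genes passed the test between AMH and control. With edgeR's quasi-likelihood test at an adjusted p of 0.05, 0 of 9 were called, beside 0 of all 18868 genes tested (0%). At an unadjusted p under 0.05 there were 6 lower and 1 higher, beside 17.3% of all genes lower and 20.2% higher. In 5 of the 9 every AMH library lay below every control, as in 23.3% of all genes, and in 1 every AMH library lay above, as in 26.9%. The median log2 fold change of the 9 was -0.70, against -0.01 over all genes tested. DESeq2 called 3 of the 9 lower (Trp63, Trp73 and Mdm4) and 0 higher, where it called 6.29% of all genes lower and 16.4% higher. These calls turned on the libraries: leaving out control 1, control 2, AMH 1 or AMH 2 left DESeq2 with 0 of the 9. Without control 3 it called 6 lower and 1 higher (all genes 14% and 29%), and without AMH 3 it called 5 lower and 0 higher (15.6% and 19.3%).

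**Figure D1:**
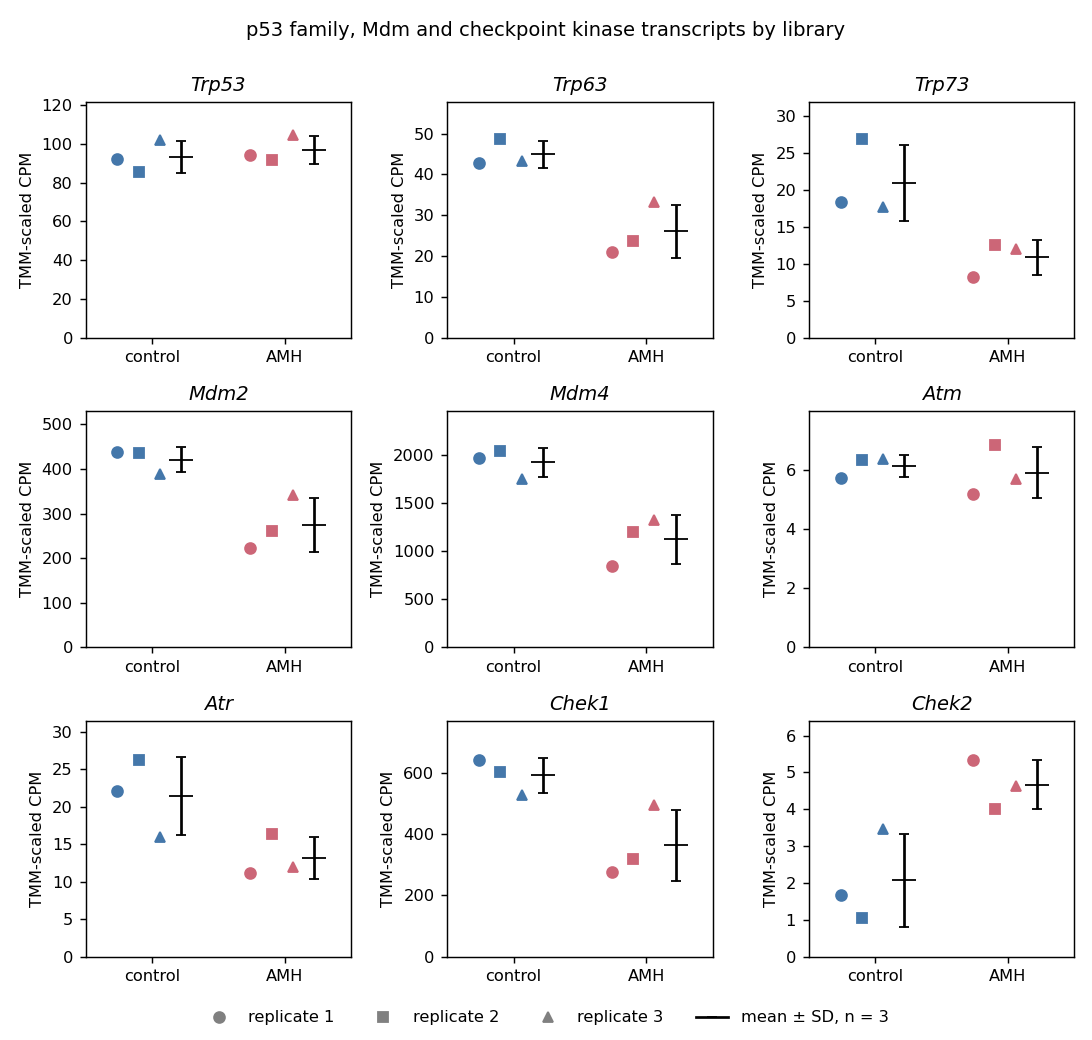
TMM-scaled CPM of each gene (vertical axes, from 0) in the 3 control libraries and the 3 AMH libraries, with replicates by symbol and bars for mean ± SD (n = 3). AMH libraries lie below all controls for Trp63, Trp73, Mdm2, Mdm4 and Chek1 and above them for Chek2, while Trp53, Atm and Atr overlap. Under oocyte-list scaling the difference of Mdm2 turned to 0.10 and that of Atr to 0.11 (log2).

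Directions depend on how libraries are scaled, because each scaling moves all genes together: their median log2 fold change was -0.01 with TMM, 0.26 when only library size was used, -0.23 under upper-quartile scaling and 0.73 when libraries were scaled to the oocyte marker list. Directions below are relative to TMM. Over these 4 scalings Chek2 was higher in AMH libraries in each (1.17, 1.43, 1.00 and 1.84), and Trp63, Trp73, Mdm4 and Chek1 were lower in each, though with oocyte-list scaling by only -0.09, -0.19, -0.05 and -0.02. Mdm2 and Atr turned to 0.10 and 0.11 with oocyte-list scaling. In the order TMM, library size, upper quartile and oocyte list, Trp53 was 0.05, 0.32, -0.16 and 0.78, and Atm was -0.06, 0.22, -0.28 and 0.70.

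**Figure D2:**
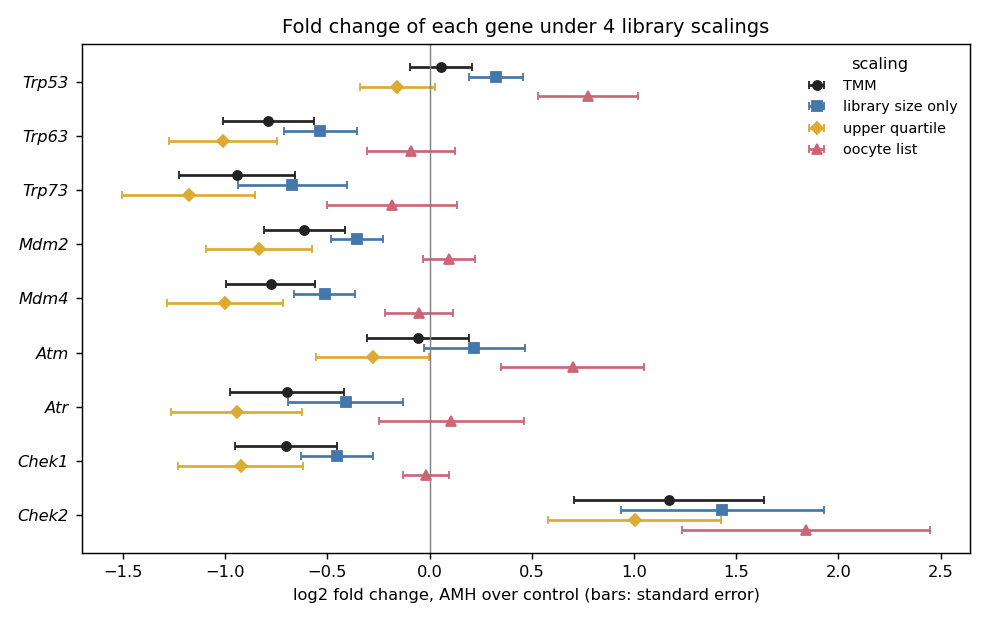
Log2 fold change of AMH over control (horizontal axis) with its standard error for each gene under 4 library scalings in edgeR. Chek2 stays to the right of 0 in all 4, while with oocyte-list scaling Mdm2 and Atr cross to the right and Chek1, Mdm4, Trp63 and Trp73 come close to 0.

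Within the p53 family, the groups overlapped for Trp53, whereas Trp63 and Trp73 had lower values in every AMH library. Gene positions are on GRCm38 and span the whole gene. Trp53, the damage-activated tumour suppressor (chr11:69580359-69591873), had 92.4, 85.3 and 102 CPM in controls 1, 2 and 3 and 94.2, 91.6 and 105 CPM in AMH 1, 2 and 3. The groups overlapped throughout. Its log2 fold change was 0.05 (SE 0.15, edgeR adjusted p = 0.781), and its sign was not stable: -0.017 without control 2, -0.035 without AMH 3 and -0.16 with upper-quartile scaling.

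Trp63, which encodes the oocyte form TAp63 as well as shorter epithelial forms (chr16:25683763-25892102), had 42.8, 48.8 and 43.4 CPM in controls 1, 2 and 3 and 21.1, 23.8 and 33.2 CPM in AMH 1, 2 and 3. Every AMH library lay below every control, AMH 3 nearest to them. The log2 fold change was -0.79 (SE 0.22, 1.73-fold lower, edgeR adjusted p = 0.116; unadjusted p = 0.00956). A count per gene joins its 8 annotated transcripts, so the forms with and without the transactivation domain are not separated. Trp63 also marks basal epithelium, and its keratins had few counts: Krt5 had 1 count in AMH 3 and 0 in the other 5 libraries, and Krt14 had 9 counts in AMH 1, 2 in AMH 2 and 0 in the other 4. Krt15 had at most 4 counts in a control, but 88 in AMH 1 and 28 in AMH 2 (0 in AMH 3), and Krt17 had at most 8, in control 2. Over the 10 basal markers, of which 5 had counts in every library, the sum was 34.7 to 38.5 CPM in controls against 19.9 to 28.1 CPM after AMH. Most of it was Itgb4, an integrin subunit, at 27.0 to 31.1 CPM in controls against 12.0 to 20.7 CPM after AMH. Its part in the Trp63 values was not tested.

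Trp73, whose product resembles p53 and also serves the programme of multiciliated cells (chr4:154056253-154140208), had 18.3, 26.9 and 17.7 CPM in controls 1, 2 and 3 and 8.18, 12.6 and 12.0 CPM in AMH 1, 2 and 3. No AMH library reached the lowest control. The log2 fold change was -0.94 (SE 0.28, 1.92-fold lower, edgeR adjusted p = 0.116; unadjusted p = 0.0130). Without control 2 it was -0.74. Foxj1, the main transcription factor of multiciliated cells, had higher values in every AMH library, with 0.0623 to 0.202 CPM in controls against 1.04 to 5.43 CPM after AMH. Over the 18 ciliated cell markers found, 14 with counts in every library, the sum was 214 to 350 CPM in controls against 168 to 226 CPM after AMH, and Ccno alone accounted for 142 to 268 and 80.0 to 141 CPM of it. Besides Ccno, only Dnah9 was below every control in all AMH libraries (52.7 to 63.4 against 26.5 to 50.2 CPM). Mcidas, Gmnc, Myb, Dnah5 and Hydin overlapped. The rest were higher in every AMH library, as Foxj1 was, for example Rsph1 (0.826 to 2.53 against 4.79 to 11.3 CPM) and Tppp3 (4.46 to 5.84 against 9.82 to 31.8 CPM). The part of ciliated cells in the Trp73 values was not tested.

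Both Mdm transcripts, among the most abundant of the set, had lower values in AMH libraries. Mdm4 (chr1:132959484-133030561) had 1976, 2046 and 1756 CPM in controls 1, 2 and 3 and 842, 1201 and 1329 CPM in AMH 1, 2 and 3. The groups were well apart, AMH 3 being the nearest to the controls. Its log2 fold change was -0.78 (SE 0.22, 1.71-fold lower, edgeR adjusted p = 0.116; unadjusted p = 0.00934). Mdm2 (chr10:117688875-117710758) had 438, 436 and 388 CPM in controls 1, 2 and 3 and 223, 260 and 342 CPM in AMH 1, 2 and 3. Here AMH 3 came close to control 3, and the log2 fold change was -0.61 (SE 0.20, 1.53-fold lower, edgeR adjusted p = 0.116; unadjusted p = 0.0181), turning to 0.10 with oocyte-list scaling.

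Of the apical kinases, Atm overlapped throughout and Atr had a lower mean with overlap. Atm (chr9:53439149-53536740) had 5.71, 6.33 and 6.37 CPM in controls 1, 2 and 3 and 5.16, 6.84 and 5.67 CPM in AMH 1, 2 and 3. Both the lowest and the highest value were in AMH libraries. The log2 fold change was -0.06 (SE 0.25, edgeR adjusted p = 0.859), a sign that turned to 0.021 without AMH 1. Atr (chr9:95857597-95951781) had 22.1, 26.2 and 15.9 CPM in controls 1, 2 and 3 and 11.1, 16.4 and 12.0 CPM in AMH 1, 2 and 3, so that AMH 2 lay above control 3. Its log2 fold change was -0.70 (SE 0.28, edgeR adjusted p = 0.125; unadjusted p = 0.0412). On the opposite strand Gm16794, an antisense transcript, held counts equal to 2.31% of those of Atr, and reads of the pair cannot be told apart if the counting ignored strand.

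The effector kinases had differences of opposite sign. Chek1, which delays entry into M phase by acting on CDC25 phosphatases (chr9:36708482-36727065), had 644, 606 and 529 CPM in controls 1, 2 and 3 and 276, 320 and 497 CPM in AMH 1, 2 and 3. AMH 1 and 2 were far below the controls, and AMH 3 was just under control 3. The log2 fold change was -0.70 (SE 0.25, 1.63-fold lower, edgeR adjusted p = 0.118; unadjusted p = 0.0263), and -1.02 without AMH 3.

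Chek2, the kinase that acts downstream of ATM and upstream of TAp63 in damaged oocytes (chr5:110839979-110874145), had 1.67, 1.06 and 3.47 CPM in controls 1, 2 and 3, from 108, 68 and 229 counts. In AMH 1, 2 and 3 it had 5.35, 4.02 and 4.62 CPM, from 434, 307 and 303 counts. Every AMH library was above every control, and control 3 stood well above the other controls. The log2 fold change was 1.17 (SE 0.47, 2.25-fold higher, edgeR adjusted p = 0.124; unadjusted p = 0.0408), 0.85 without control 2 and 1.76 without control 3. Cumulus marker level was lowest in the same libraries, 397 and 1152 CPM in controls 2 and 1, and at least 3658 CPM in the other 4. The part of cumulus cells in the Chek2 values was not tested.

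**Figure D3:**
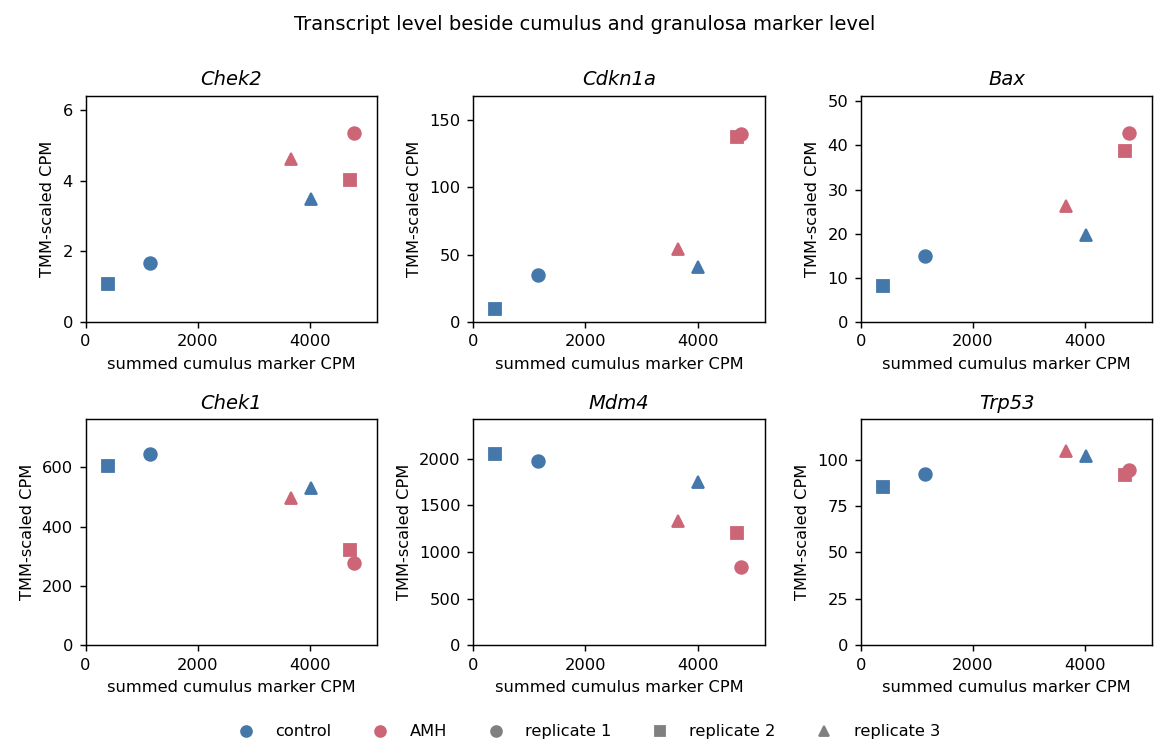
TMM-scaled CPM of 6 genes (vertical axes, from 0) against the summed CPM of 23 cumulus and granulosa markers (horizontal axes) in the 6 libraries. Controls 1 and 2 are at the left, and control 3 and AMH 3 lie next to each other. Chek2, Cdkn1a and Bax are lowest where marker level is lowest, Chek1 and Mdm4 are highest in controls 1 and 2, and Trp53 is nearly level; with oocyte-list scaling the Trp53 difference is 0.78 (log2).

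How many of the 9 genes passed turned on control 3 and AMH 3. Without control 3, whose summed cumulus markers lay in the AMH range, edgeR called 5 of the 9: Trp63, Trp73, Mdm4 and Atr lower and Chek2 higher, where 11.2% of all genes were called lower and 26.8% higher. Without AMH 3 it called 4 of the 9, Trp63, Mdm2, Mdm4 and Chek1, all lower, where 6.73% of all genes were called lower and 1.45% higher. Leaving out control 1, control 2, AMH 1 or AMH 2 gave 0 calls. Limma on log2(FPKM + 1) tested 7 of the 9, those above 1 FPKM in at least 3 libraries, and called 0 of them, as it called 0% of 11894 genes. Its adjusted p were 0.0581 to 0.0586 for the 6 genes other than Trp53. Without control 3 limma called 1 of the 7 higher and 5 lower (all genes 33% and 25.9%), while dropping AMH 3 gave 0 higher and 4 lower (17.1% and 20.9%).

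Ratios between 2 genes of the same library do not depend on how libraries are scaled, so 6 were compared. Mdm2 over Trp53, in FPKM, was 3.77, 4.07 and 3.02 in controls 1, 2 and 3 against 1.89, 2.26 and 2.60 in AMH 1, 2 and 3. Every AMH library thus had less Mdm2 transcript per Trp53 transcript than any control, by a mean log2 difference of -0.69. Mdm4 over Trp53 was 5.84, 6.56 and 4.70 against 2.44, 3.58 and 3.47 in the same order, a mean log2 difference of -0.86. Trp63 over Trp53 was 0.223, 0.276 and 0.205 against 0.108, 0.125 and 0.153, a mean log2 difference of -0.87. Each of these 3 ratios was lower in all AMH libraries than in any control.

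The kinase ratios separated as well. Chek1 over Chek2 was 249, 370 and 98.7 in controls 1, 2 and 3 against 33.4, 51.6 and 69.6 in AMH 1, 2 and 3, a mean log2 difference of -2.08, with control 3 nearest to the AMH libraries. Atm over Atr was 0.591, 0.551 and 0.913 against 1.06, 0.952 and 1.08, a mean log2 difference of 0.62, with control 3 just under AMH 2. Mdm4 over Mdm2 was 1.55, 1.61 and 1.55 against 1.30, 1.59 and 1.34, so AMH 2 lay among the controls, AMH 1 and 3 lay below them, and the mean log2 difference was -0.17. The two-sided exact permutation p was 0.1 for the 5 ratios without overlap, the smallest that 3 against 3 libraries allow, and 0.3 for Mdm4 over Mdm2 (adjusted over the 6 ratios 0.12 and 0.3). How often ratios of other gene pairs separate was not computed. Of all genes tested singly, 26.9% lay above every control in all AMH libraries and 23.3% below. The 5 ratios are therefore not read as particular to these genes.

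**Figure D4:**
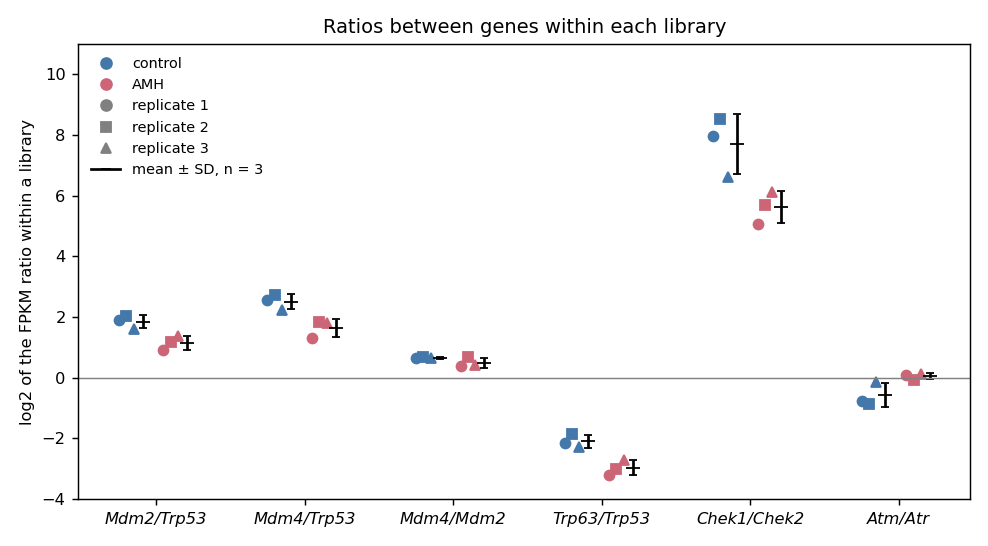
Log2 of the FPKM ratio of 2 genes within each library (vertical axis) for 6 gene pairs, with replicates by symbol and bars for mean ± SD (n = 3). AMH libraries lie below all controls for Mdm2, Mdm4 and Trp63 over Trp53 and for Chek1 over Chek2, above them for Atm over Atr, while for Mdm4 over Mdm2 AMH 2 lies among the controls and AMH 1 and 3 lie below them.

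Genes that act on or after these 9 were taken from 4 lists, chosen with earlier results of these data known. Over all of them edgeR called 0 genes, as it called 0% of all genes. Known transcriptional targets of p53 and its relatives split in direction. Of 30 tested, 10 had all AMH libraries above all controls and 8 had them below, beside 26.9% and 23.3% of all genes, and 12 overlapped. Their median log2 fold change was 0.66 (all genes -0.01), with 0.45 under upper-quartile and 1.41 under oocyte-list scaling.

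Cdkn1a, the p21 inhibitor of cyclin-dependent kinases, had 34.7, 9.19 and 40.8 CPM in controls 1, 2 and 3 and 140, 137 and 54.0 CPM in AMH 1, 2 and 3. AMH 3 was close to controls 1 and 3, and the edgeR adjusted p was 0.116 (log2 fold change 1.97, SE 0.62). Bax, a pore-forming death effector, had 14.9, 8.01 and 19.7 CPM against 42.8, 38.7 and 26.2 CPM. For both genes the lowest value was that of control 2, the library with the lowest cumulus marker level (397 CPM), and AMH 3 was the lowest AMH library, with 3658 CPM of those markers. Control 3 had more of the markers than AMH 3 (4015 CPM) but less Cdkn1a and Bax. The part of cumulus cells in these values was not tested.

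Other named targets with higher means in AMH libraries were Ccng1, a cyclin of the p53 response (14.8 ± 6.42 against 28.7 ± 5.77 CPM, SD, n = 3 each), Gadd45a, a stress and repair factor (11.9 ± 4.95 against 25.5 ± 7.48 CPM), and Sesn1, a stress-induced regulator of mTORC1 (5.30 ± 2.98 against 12.3 ± 2.89 CPM). Zmat3, an RNA-binding protein, had 0.897 ± 0.282 against 1.85 ± 0.279 CPM. The death genes Bbc3 (PUMA) and Pmaip1 (NOXA), which TAp63 switches on in damaged oocytes, differed in opposite directions. Bbc3 had 1.89, 0.249 and 2.41 CPM in controls against 5.86, 4.66 and 2.68 CPM after AMH, and Pmaip1 had 0.915, 0.358 and 0.455 against 0.209, 0.235 and 0.290 CPM. Neither pair of groups overlapped, though AMH 3 was just above control 3 for Bbc3. Pmaip1 was at a very low level in every library, and the edgeR adjusted p was 0.171 for Bbc3 and 0.126 for Pmaip1. Trp53inp1, a p53-induced nuclear protein, was lower (169 ± 12.1 against 104 ± 17.0 CPM), and Rrm2b, a ribonucleotide reductase subunit, overlapped (164 ± 29.6 against 112 ± 56.2 CPM). DESeq2 called 6 of the 30 higher and 1 lower (all genes 16.4% and 6.29%). Without control 3 edgeR called 11 higher and 3 lower (26.8% and 11.2%), and without AMH 3 0 higher and 1 lower (1.45% and 6.73%).

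Sensors, adaptors and effectors of the checkpoint had mostly lower or overlapping values. Of the 32 listed 31 were tested, and 1 had all AMH libraries above all controls and 9 below, beside 26.9% and 23.3% of all genes, with 21 overlapping. The number below was thus near the background. The median log2 fold change was -0.41, which turned to 0.33 with oocyte-list scaling. Trp53bp1, a scaffold at double-strand breaks, had 1303 ± 95.2 against 850 ± 208 CPM (control and AMH mean ± SD, 3 libraries each), and Hus1, a subunit of the 9-1-1 clamp that helps ATR, had 238 ± 12.0 against 138 ± 39.9 CPM. Atrip, the partner of ATR, was the member of the list with every AMH library above every control, at 4.06, 2.06 and 6.35 CPM in controls against 12.3, 11.5 and 6.62 CPM after AMH. It thus differed in the direction opposite to Atr. Rad17, the loader of that clamp, had 47.6 ± 6.77 against 35.2 ± 6.25 CPM, Clspn, which links ATR to CHK1, 65.1 ± 24.3 against 41.5 ± 7.02 CPM, and Topbp1, an activator of ATR, 25.4 ± 5.22 against 23.4 ± 3.27 CPM. All 3 overlapped between groups, as did the break-site adaptors Nbn (22.1 ± 4.83 against 18.4 ± 1.196 CPM) and Mdc1 (16.5 ± 3.24 against 13.9 ± 2.38 CPM). Wee1, the kinase that restrains CDK1, had 5.71 ± 2.43 against 10.9 ± 3.52 CPM, and Cdc25b, a phosphatase that opposes it, 23.5 ± 3.61 against 20.9 ± 5.16 CPM, both with overlap. Of these mediators DESeq2 called 1 of the 31 higher and 3 lower (all genes 16.4% and 6.29%). Without control 3 edgeR called 5 higher and 9 lower (26.8% and 11.2%), and without AMH 3 0 higher and 6 lower (1.45% and 6.73%).

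Among regulators of p53, 24 of 26 were tested, 7 had all AMH libraries above all controls and 6 below, both near the 26.9% and 23.3% of all genes. The median log2 fold change was -0.03 (0.25 with library size only, -0.27 with upper-quartile and 0.75 with oocyte-list scaling). Usp7, the deubiquitinase that stabilises MDM2 and p53, had 410, 442 and 385 CPM in controls 1, 2 and 3 and 178, 234 and 305 CPM in AMH 1, 2 and 3. Its groups did not overlap, as for Mdm2. Ppm1d, the phosphatase WIP1 that ends checkpoint signals, had 64.9 ± 3.27 against 46.0 ± 8.53 CPM (SD, n = 3 each). Hipk2, a p53 kinase, overlapped (145 ± 23.0 against 97.7 ± 41.5 CPM). Setd7, a lysine methyltransferase, and Trp53bp2, which directs p53 to death genes, had higher means at low level, 0.642 ± 0.583 against 2.76 ± 1.11 CPM and 5.07 ± 4.91 against 18.2 ± 7.36 CPM. Control 3 and AMH 3 were close for both, at 1.29 and 1.49 CPM for Setd7 and 10.61 and 10.64 CPM for Trp53bp2. Cop1, a ubiquitin ligase for p53, varied widely within the AMH group, with 306, 260 and 387 CPM in controls and 112, 33.7 and 376 CPM in AMH 1, 2 and 3. Of the 24 regulators to which DESeq2 gave an adjusted p, it called 5 higher and 1 lower (all genes 16.4% and 6.29%). Without control 3 edgeR called 7 higher and 4 lower (26.8% and 11.2%), and without AMH 3 2 higher and 3 lower (1.45% and 6.73%).

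Of 11 genes placed with TAp63 in the removal of damaged oocytes, Trp63, Chek1 and Chek2 included, 4 had all AMH libraries above all controls and 5 below, beside 26.9% and 23.3% of all genes. Their median log2 fold change was -0.23, which turned to 0.04 with library size only and 0.53 with oocyte-list scaling. Of the casein kinases of the list, 1 had lower AMH values without overlap and 2 overlapped. Csnk1e had 798, 840 and 604 CPM in controls 1, 2 and 3 and 420, 354 and 500 CPM in AMH 1, 2 and 3, without overlap, whereas Csnk1d had 69.0, 65.0 and 108 against 161, 143 and 101 CPM, with overlap through AMH 3 and control 3. Csnk1a1 overlapped (236 ± 40.3 against 200 ± 13.3 CPM, SD, n = 3 each). Abl1, a tyrosine kinase reported to act on TAp63, had 144 ± 15.9 against 107 ± 11.6 CPM, and the death effector Bak1 was near the detection limit at 0.0763 ± 0.0799 against 0.500 ± 0.117 CPM. In this list DESeq2 called 2 of the 11 higher and 2 lower (all genes 16.4% and 6.29%). Without control 3 edgeR called 4 higher and 2 lower (26.8% and 11.2%), and without AMH 3 0 higher and 3 lower (1.45% and 6.73%).

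**Figure D5:**
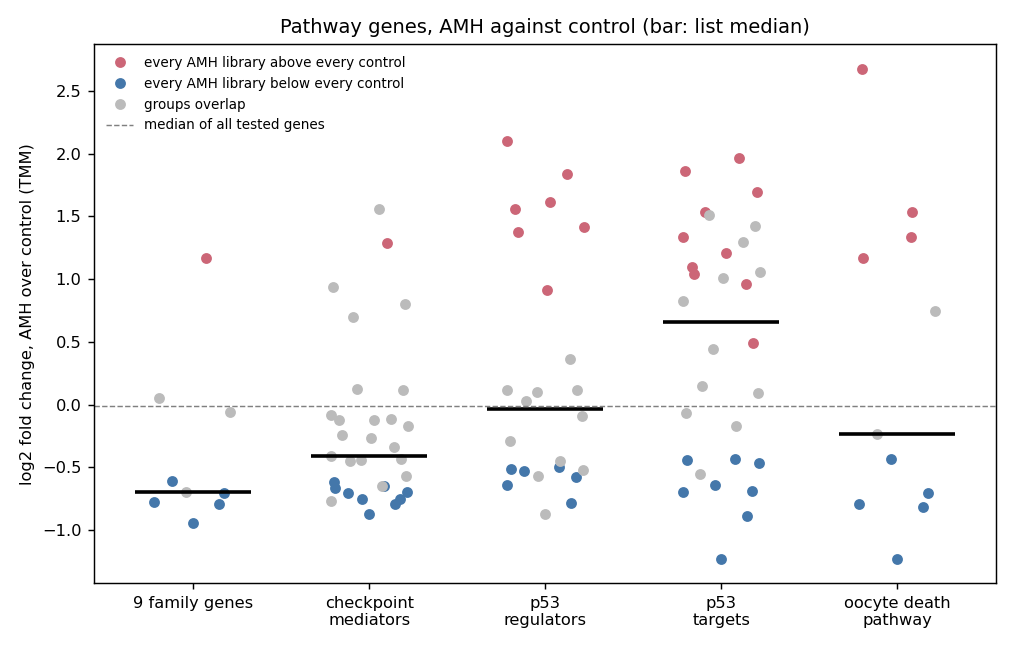
Log2 fold change of AMH over control with TMM (vertical axis) for each tested gene of the family and of 4 pathway lists, coloured by whether the groups overlap, with a bar at each list's median and a dashed line at the median of all tested genes. The median is -0.70 for the 9 family genes, -0.41 for checkpoint mediators, -0.03 for p53 regulators, 0.66 for p53 targets and -0.23 for the oocyte death pathway, and with oocyte-list scaling the family and mediator medians turn to 0.10 and 0.33.

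For the gene of highest mean FPKM in each role, the 3 protein-coding genes of most similar pattern were found among 10002 genes whose mean reached 5 CPM, by Pearson's r of log2 CPM over the 6 libraries, as a description. Those nearest to Chek1 were Naa16, Mia3 and Timd4 (r = 0.9998, 0.9997 and 0.9997), and those nearest to Mdm4 were Kbtbd7, Ppip5k2 and Fam167a (0.9998, 0.9996 and 0.9993). Naa16 had 174, 163 and 143 CPM in controls 1, 2 and 3 and 75.9, 86.1 and 134 CPM in AMH 1, 2 and 3, the same order of libraries as Chek1. The pattern was common: 2536 of the 10002 genes had r over 0.9 with Chek1 and 2198 with Mdm4. Trp53 had 55 such genes, and nearest to it were Shmt2, Fam168b and Kdelc1 (r = 0.996, 0.985 and 0.981). All points share the libraries and their scaling.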

How the data were processed

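Per the labels' protocols, SMART v4 amplification and poly-T beads were used. The deposited tables give raw counts for each Ensembl gene and FPKM values for the 6 libraries. HISAT2 2.0.5, featureCounts 1.5.0-p3, DESeq2 1.20.0, GRCm38 and mm10 appear in the submitters' processing notes. Their roles and the strand setting are not stated there. Each deposited FPKM value equals the count over gene length and over 1 effective size per library, 0.924 to 1.18 of the count total. These effective sizes were proportional to the median-of-ratios size factors of DESeq2, so FPKM values carry that scaling.

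Counts were tested with edgeR 4.0.16 (R 4.3.3) by its robust quasi-likelihood method, with TMM scaling, filterByExpr, group alone as design and Benjamini-Hochberg adjustment at 0.05 over 18868 genes. All 9 genes passed the filter. Standard errors come from the F statistic. Limma 3.58.1 tested log2(FPKM + 1). Alternatives were leaving out each library in turn, a block for replicate number, DESeq2 1.42.0, limma-voom, and other filters or scalings. Oocyte-list scaling divides by the summed counts of 31 oocyte markers. The tools were tested on simulated data.

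The genes, lists, tests and alternatives were chosen with earlier results of these data known. The 9 genes are always named. Other pathway genes and the marker genes were named from a list written without regard to direction, plus any gene past the edgeR threshold (none was). Itgb4, Inha, Fst and the ciliated cell markers other than Foxj1 and Ccno were named after their values were seen. So were Cyp19a1, Cyp11a1 and the single endothelial markers. All 9 positions were identical in GENCODE M21. Promoter windows are those of RefSeq on GRCm38.p6.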

Additional observations from a re-analysis of the deposited data

How the results depend on the processing

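With limma-voom, library size only, upper-quartile, median-of-ratios and oocyte-list scaling, no filter, at least 5 CPM in 3 libraries, and the replicate block, edgeR or limma called 0 of all genes and 0 of the 9 (8 tested at 5 CPM, without Chek2). DESeq2 called 4095 of all genes, 3 of the 9, 7 p53 targets, 4 checkpoint mediators, 6 p53 regulators and 4 of the oocyte death pathway. Leaving out 1 library gave 0 to 9396 of all genes and 0 to 7 of the 9 (lowest and highest over edgeR and DESeq2, the latter added after the data were seen). Without control 3, edgeR called 7513 genes and without AMH 3 it called 1607. DESeq2 then called 9396 and 6360, and 490, 1376, 154 and 265 without control 1, control 2, AMH 1 and AMH 2. With edgeR the ranges were 0 to 14 p53 targets, 0 to 14 mediators, 0 to 11 regulators and 0 to 6 of the death pathway, and limma on FPKM called 0 to 6 of the 9. Without AMH 3 alone these were 1, 6, 5, 3 and 4. The causes were not tested. The direction of Trp53 reversed with upper-quartile scaling (-0.16), without control 2 (-0.017) and without AMH 3 (-0.035), with 0.12 the highest on leaving out 1 library (control 3), that of Atm with library size only (0.22), oocyte-list scaling (0.70) and without AMH 1 (0.021), with -0.19 the lowest on leaving out 1 library (AMH 2), and those of Mdm2 (0.10) and Atr (0.11) with oocyte-list scaling. The 6 ratios kept their sign with a pseudocount of 0.1, with the replicate block and on leaving out each library.

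The labels do not say that replicate numbers pair the libraries. Deviations of same-numbered libraries correlated at 0.06, -0.10 and -0.25 for numbers 1, 2 and 3, and no library correlated best with its own number. Deviations within a group of 3 libraries are not independent, so these correlations cannot exclude a pairing. With the replicate block 0 of all genes and 0 of the 9 were called. The lowest count of the 9 genes was 68 (Chek2, control 2), where counting error is largest.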

Other observations

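A further 3 genes that touch the p53 pathway are described here because of their values, and so were chosen after those were seen. Rpl5 and Rpl11, ribosomal proteins that can bind MDM2 and keep it from p53, had higher values in every AMH library than in any control. So had 26.9% of all genes tested, and a link to the Mdm2 values was not tested. Rpl5 had 39.7 ± 7.74 against 74.7 ± 12.1 CPM (control and AMH mean), and Rpl11 had 17.5 ± 5.003 against 45.5 ± 9.11 CPM (SD, n = 3 each, edgeR adjusted p = 0.116 for both). Both have many processed pseudogenes, so their counts are uncertain. Brca1, a repair and checkpoint protein, had 138 ± 20.5 against 75.1 ± 19.7 CPM (edgeR adjusted p = 0.116).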
